A study of Homo sapiens with 9 samples.

Results

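A soft hydrogel was compared with plastic in MCF10A cells that carried activated HER2, by RNA-seq of 1 library on each support. These were 2 of the 9 libraries of the study, chosen as its only HER2 libraries with control siRNA, and the comparison ran over all 25369 genes with a symbol. MCF10A is a non-tumorigenic human cell line derived from mammary epithelium. The HER2 cells on the hydrogel and the HER2 cells on plastic had both received pBABEpuro-HER2-CA, a retroviral construct of HER2 with the V659E substitution, and the control siRNA siAS. They were replated 24 h after transfection onto polyacrylamide (PAAm) of 0.5 kPa or onto plastic, and RNA was taken 24 h later. Whether the HER2 cells were a pool or 1 clone was not stated in the sources used here. The other libraries used here were empty-vector cells (pBABEpuro, control siRNA), 1 on the same hydrogel and 2 on plastic (A and B). HER2 cells and empty-vector cells on plastic with siRNA against YAP1 and WWTR1 were used as well (reagents 1 and 3, 1 library each in each line). All cells were grown with insulin, EGF, hydrocortisone and cholera toxin.

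Cells read the stiffness of their support through integrins and the actin cytoskeleton. On stiff supports the co-activators YAP and TAZ enter the nucleus and, with TEAD factors, activate genes for matrix and cytoskeletal proteins such as CTGF, CYR61 and THBS1. HER2 is a receptor tyrosine kinase that signals through the RAS-ERK and PI3K pathways. Activated HER2 in MCF10A is used as a model of early breast tumor growth. PPARG, a nuclear receptor known as the regulator of fat cell differentiation, activates genes of fatty acid uptake and storage, which are described first among the results.

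Short DNA motifs known to be bound by these factors, or by NF-kB and the interferon-activated factors, were read in RefSeq promoters (build GRCh38.p14, 250 bases before to 50 bases after the annotated gene start, 5′ to 3′ on the gene's strand). Promoters are shown for 2 YAP/TAZ targets that were lower on the hydrogel, 1 chemokine gene that was lower there and 1 interferon-stimulated gene that was higher, since these genes are followed in the results. Capitals mark GGAATG, the core bound by TEAD factors, in CTGF and THBS1, and an NF-kB sequence in CXCL1. In IFI6 they mark an interferon response element, read as a pair of GAAA blocks with any 2 bases between them. The NF-kB motif searched was the very run of capitals shown in CXCL1.
CTGF, chr6:131951323-131951622, minus strand: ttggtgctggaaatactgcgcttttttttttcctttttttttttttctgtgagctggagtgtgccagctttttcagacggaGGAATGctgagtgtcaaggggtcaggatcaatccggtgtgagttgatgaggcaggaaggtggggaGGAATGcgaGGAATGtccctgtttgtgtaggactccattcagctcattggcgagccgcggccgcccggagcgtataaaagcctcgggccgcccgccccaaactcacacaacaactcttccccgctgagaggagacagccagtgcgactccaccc
THBS1, chr15:39580829-39581128, plus strand: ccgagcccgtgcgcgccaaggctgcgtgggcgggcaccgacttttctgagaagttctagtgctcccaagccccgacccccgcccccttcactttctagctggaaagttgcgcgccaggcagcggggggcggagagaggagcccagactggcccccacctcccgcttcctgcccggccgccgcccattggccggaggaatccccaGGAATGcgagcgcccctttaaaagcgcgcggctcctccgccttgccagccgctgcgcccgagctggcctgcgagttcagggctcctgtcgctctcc
CXCL1, chr4:73869143-73869442, plus strand: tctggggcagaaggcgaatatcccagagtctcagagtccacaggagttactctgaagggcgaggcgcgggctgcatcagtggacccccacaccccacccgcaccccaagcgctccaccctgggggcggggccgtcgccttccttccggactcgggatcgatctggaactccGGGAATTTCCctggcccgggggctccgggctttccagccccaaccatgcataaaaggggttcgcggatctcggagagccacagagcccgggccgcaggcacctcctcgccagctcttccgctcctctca
IFI6, chr1:27672143-27672442, minus strand: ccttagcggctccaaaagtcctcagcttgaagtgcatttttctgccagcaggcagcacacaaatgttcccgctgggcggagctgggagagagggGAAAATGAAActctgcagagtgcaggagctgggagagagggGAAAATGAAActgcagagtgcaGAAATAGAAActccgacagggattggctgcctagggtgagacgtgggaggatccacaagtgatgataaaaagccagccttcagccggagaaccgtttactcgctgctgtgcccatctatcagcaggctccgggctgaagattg

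The TEAD core began 169, 104 and 95 bases before the start of CTGF and 46 bases before that of THBS1. The NF-kB sequence began 79 bases before the start of CXCL1, and the interferon element 156, 115 and 93 bases before that of IFI6. Each motif was searched on both strands and overlaps none of the others shown. Over all 35116 promoters of the same length, 14% held the TEAD core, 3.57% the interferon element and 0.145% the NF-kB sequence. The TEAD core was found in 9 of the 16 YAP/TAZ targets with a promoter in the table, and the interferon element in 20 of 30 interferon-stimulated genes. The NF-kB sequence was found in 7 of 27 inflammatory genes. CXCL1 is among these, and as the searched sequence is the one shown in it, its match is no separate finding. A match describes the letters of these windows only, and no binding was measured.

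The hydrogel library had 71058119 counts and the plastic library 24425556, the fewest of the 9, whose totals reached 78945981. A floor of 3 counts was 0.0427 CPM (counts scaled to a common library size) on the hydrogel and 0.131 CPM on plastic. At least 1 count was seen for 14544 genes on the hydrogel and for 15267 on plastic. Genes at 1 to 3 counts numbered 294 on the hydrogel and 1774 on plastic, so the deeper library held fewer rare transcripts, and a count of 0 on the hydrogel carries this limit besides the counting error. ERBB2, the gene of the introduced receptor, stood at 416 CPM on the hydrogel, against 614 CPM on plastic in HER2 cells and 60.5 and 57.7 CPM in empty-vector controls A and B. The epithelial markers were mixed in HER2 cells. The 8 luminal markers summed to 233 CPM on the hydrogel and 215 CPM on plastic, with 6 of 8 at 1 CPM or more on each support. The 8 basal markers summed to 450 CPM on the hydrogel, with 4 at 1 CPM or more, and to 858 CPM on plastic, with 6. In empty-vector cells the luminal sum was 4730 CPM on the hydrogel and 1510 CPM in each control on plastic, and the basal sum 6180 CPM on the hydrogel and 6920 and 6740 CPM on plastic. Some defining members were near absent in HER2 cells on both supports: CDH1 had 1.65 CPM on the hydrogel and 1.18 CPM on plastic, KRT14 0.712 and 0.875 CPM, and TP63 0.626 and 0.438 CPM. In empty-vector controls on plastic CDH1 stood at 445 and 442 CPM. Of the keratins, KRT5 (329 CPM on the hydrogel, 581 CPM on plastic) and KRT7 (365 and 570 CPM) were present. The plastic library also stood apart from all others in some genes, ATN1, ECSCR and several splicing and nuclear RNAs among them, and their values in the other HER2 libraries on plastic are given beside them. Summed over 8 markers each, fibroblast genes reached 13.5 CPM on the hydrogel and 49.5 CPM on plastic, endothelial genes 21.2 and 13.9 CPM, and leukocyte genes 45.4 and 29.5 CPM.

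With 1 library on each side the difference has no replicate check. It is given as the difference in log2(CPM + 0.5), hydrogel minus plastic, which understates the change of low genes, for the 11980 genes with 1 CPM or more in either library. At least 2-fold higher on the hydrogel were 881 genes (7.35%) and at least 2-fold lower 687 (5.73%), which makes 1568 (13.1%) either way. The largest differences passed 4-fold in 84 higher and 92 lower genes, and the median over all genes was 0.006. The only control pair of the study, empty-vector controls A and B on plastic, differed 2-fold in 2 of 12223 genes (0.0164%), with a standard deviation of 0.149 over genes. The absolute difference exceeded by 1% of genes was 2.22 between hydrogel and plastic in HER2 cells and 0.521 between A and B. A and B are 1 pair from the other line, and the labels do not say that they were separate cultures. At the 2-fold threshold of 1.0 on the log2 scale, BET1L (1.0002) lay just inside and CIAPIN1 (0.9996) just outside among higher genes. Among lower genes NOM1 (-1.0003) lay just inside and ARNTL2 (-0.9997) just outside.

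A fit across all genes, with the spread taken from the groups with 2 libraries, gave the same limit. These groups were empty-vector controls A and B and, in each line, the plastic libraries with siRNA reagents 1 and 3. Differences between the reagents therefore counted as spread, such as FABP4 at 9489 and 266 CPM in HER2 cells. The numbers of genes called below carry this limit. By edgeR's quasi-likelihood test with Benjamini-Hochberg adjustment, 0 of 16117 genes (0%) passed 0.05, with 1568 at an unadjusted p under 0.05 and a smallest adjusted p of 0.394. DESeq2 called 313 genes (1.94%), 146 higher and 167 lower. A fit with the siRNA number as a replicate block, which neither library carries, called 30 (0.186%). The fold changes below are therefore values of these libraries, and the 95% intervals on ratios cover counting error only.

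**Figure D1:**
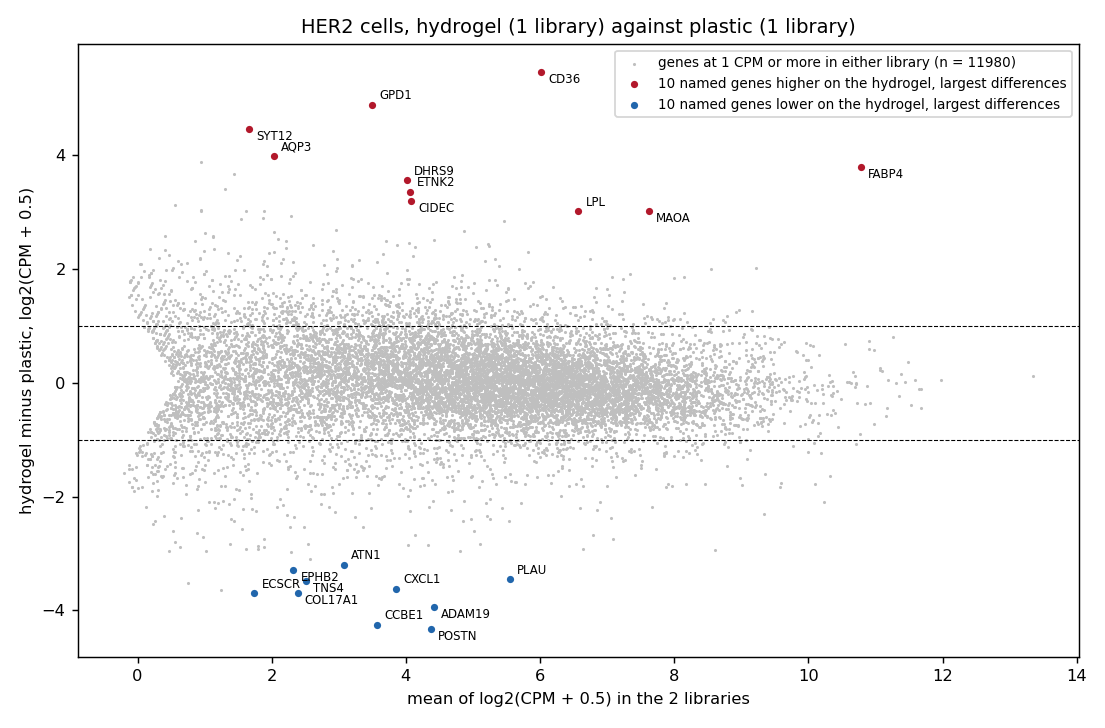
Each point is 1 of 11980 genes. The x axis gives the mean of log2(CPM + 0.5) in the hydrogel and the plastic library of HER2 cells, and the y axis the difference, hydrogel minus plastic. Dashed lines mark 2-fold, red the 10 named genes with the largest differences in favour of the hydrogel, led by CD36 at 5.47, and blue the 10 lowest, led by POSTN at -4.33.

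Genes of fat uptake and storage had some of the largest differences in favour of the hydrogel. CD36, a membrane transporter of fatty acids, had 429 CPM on the hydrogel, against 9.19 CPM on plastic, a ratio of 46.6 (counting interval 40.7 to 53.7). FABP4, the fatty acid carrier of adipocytes, had 6539 CPM on the hydrogel, against 470 CPM on plastic (13.9-fold, 13.6 to 14.2), and took 0.647% of all counts there, against 0.044% on plastic. GPD1, which makes the glycerol phosphate backbone of triglycerides, had 61.2 CPM on the hydrogel and 1.58 CPM on plastic (38.9-fold, 28 to 55.6). LPL, the lipase that releases fatty acids from lipoproteins, had 269 CPM on the hydrogel and 32.9 CPM on plastic (8.19-fold, 7.61 to 8.82). CIDEC, a protein of lipid droplets, had 50.6 CPM on the hydrogel and 5.08 CPM on plastic (counting interval of the ratio 8.28 to 12.1). These genes were named for the size of their differences. That they exceeded the largest absolute difference between controls A and B (1.12 over all genes) is therefore no test of them.

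Further genes of the same function lay on the same side. PLIN1, the perilipin of fat cell droplets, had 532 counts on the hydrogel and 6 on plastic (28.8-fold, 13.2 to 78.9). PLIN4, another droplet coat protein, had 36.7 CPM on the hydrogel and 7.44 CPM on plastic. ACSL1, which activates fatty acids, had 1199 CPM on the hydrogel and 296 CPM on plastic (4.05-fold, 3.96 to 4.16). PDK4, which turns pyruvate dehydrogenase off, had 283 CPM on the hydrogel and 79.3 CPM on plastic (3.57-fold), and the lipase LIPE had 11.3 and 3.28 CPM (3.45-fold). PPARG itself stood at 206 CPM on the hydrogel and 145 CPM on plastic (1.43-fold, 1.37 to 1.48), below the 2-fold threshold.

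Of the 22 listed genes of fatty acid synthesis and lipid storage 20 passed the minimum, of which 6 were at least 2-fold higher, against 7.35% of all genes, and 0 lower. Among the 6 were CD36, FABP4, PLIN4, ACSL1 and PDK4, whose proteins act in the uptake, storage, activation and use of fatty acids. CD36 and FABP4 were named above for the size of their differences, so the count is no test of the list. FASN, the fatty acid synthase, had 70.7 CPM on the hydrogel and 116 CPM on plastic (-0.72), and SCD, the main desaturase, had 373 and 550 CPM (-0.56). The median of the list was 0.02, with 10 members above 0 and 10 below. Of 22 sterol synthesis genes past the minimum 0 were 2-fold higher and 2 lower, HMGCS1 at -1.13 and STARD4 at -1.18, with a median of -0.17. That is 9.09% past 2-fold, against 13.1% of all genes.

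The lipid genes also differed among the other libraries, and the comparisons that follow share the plastic control. In HER2 cells on plastic with siRNA 1, FABP4 stood at 9489 CPM, CD36 at 828 CPM, LPL at 272 CPM and GPD1 at 141 CPM. With siRNA 3 FABP4 stood at 266 CPM, CD36 at 9.52 CPM, LPL at 15.2 CPM and GPD1 at 2.20 CPM. Levels with siRNA 1 lay above those of the plastic control for all 4 genes, and levels with siRNA 3 lay near or below them. In empty-vector cells levels were low on both supports: FABP4 had 22.9 CPM on the hydrogel and 7.88 and 6.82 CPM on plastic (A and B), and CD36 had 1.58 CPM on the hydrogel and 0.353 and 0.106 CPM on plastic. LPL had 0.226 CPM on the hydrogel and 0.297 and 0.317 CPM on plastic.

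The 8 adipocyte markers (ADIPOQ, LEP, PLIN1, CIDEC, LIPE, FABP4, LPL and PPARG) summed to 7080 CPM on the hydrogel and 657 CPM on plastic in HER2 cells. Of the 8, 5 were at least 2-fold higher, against 7.35% of all genes. FABP4, CIDEC and LPL are among the 5 and were named above for the size of their differences. The count is therefore no test of the markers. The sum was 10000 CPM with siRNA 1 and 365 CPM with siRNA 3 in HER2 cells. In empty-vector cells it was 37.8 CPM on the hydrogel and 20.5 and 19.6 CPM on plastic. The secreted hormones that define mature fat cells were at or near 0: LEP had 0 counts on both supports, and ADIPOQ had 8 counts (0.114 CPM) on the hydrogel and 0 on plastic. FABP4 made up most of the sum. Whether these levels come from all cells or from a few cannot be told apart in bulk RNA, and the same holds for every difference reported here.

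**Figure D2:**
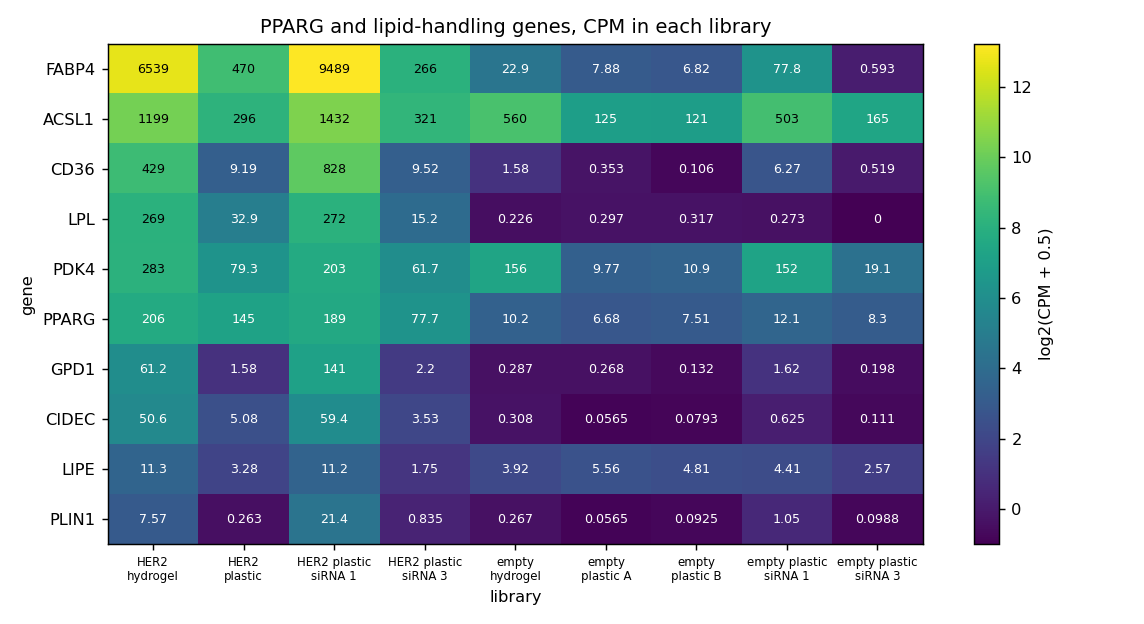
CPM of PPARG and 9 lipid-handling genes (rows) in each of the 9 libraries (columns), with the colour on a log2(CPM + 0.5) scale. FABP4 had 6539 CPM in HER2 cells on the hydrogel, against 470 CPM in HER2 cells on plastic, and the siRNA 1 library of HER2 cells shows the same genes at high levels.

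Other genes among the 15 named as higher coded for enzymes, transporters and secreted proteins. MAOA, the outer mitochondrial enzyme that oxidises serotonin and noradrenaline, had 562 CPM on the hydrogel and 68.7 CPM on plastic. DHRS9, a retinol dehydrogenase, had 54.9 CPM on the hydrogel and 4.20 CPM on plastic, and ETNK2, an ethanolamine kinase of phospholipid synthesis, 52.8 and 4.68 CPM. AQP3, a channel for water and glycerol, had 15.9 CPM on the hydrogel and 0.525 CPM on plastic. IGFBP3, which binds insulin-like growth factors, had 13.1 CPM on the hydrogel and 1.27 CPM on plastic. The others were SYT12 (14.4 CPM on the hydrogel, 0.175 CPM on plastic), LY6E (118 and 15.9 CPM), S100A9 (19.3 and 2.58 CPM), FAM65B (73.2 and 11 CPM) and CYP4X1 (50.5 and 8.45 CPM). SYT12 rests on 4 counts on plastic, so that its ratio had a counting interval of 32.0 to 302.

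Most of these 15 genes were also higher on the hydrogel in empty-vector cells. MAOA differed by 3.02 (log2) in HER2 cells and by 4.34 in empty-vector cells, AQP3 by 4.0 and 4.10, and S100A9 by 2.68 and 5.11. In empty-vector cells FAM65B was at 3.94, ETNK2 at 2.89, CYP4X1 at 2.18, DHRS9 at 2.005 and SYT12 at 1.97. FABP4 was at 1.58 and CD36 at 1.53 there, from the low levels given above. IGFBP3 (0.83) and LY6E (0.53) stayed within 2-fold there. GPD1 differed by 4.89 (log2) in HER2 cells, CIDEC by 3.195 and LPL by 3.01. These 3 genes stayed below 1 CPM in the empty-vector control libraries on both supports, so no fold change was read there.

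Genes of detoxification were higher on the hydrogel. Of 22 NRF2 targets and aldo-keto reductases past the minimum, 10 were at least 2-fold higher (7.35% of all genes were) and 1 lower, with a median of 0.73. ALDH3A1, an aldehyde dehydrogenase, had 33.4 CPM on the hydrogel and 5.82 CPM on plastic (5.74-fold, 4.82 to 6.89). AKR1C1, a reductase of steroids and carbonyls, had 75.3 CPM on the hydrogel and 13.9 CPM on plastic (5.41-fold, 4.83 to 6.08). SLC7A11, the cystine carrier and a target of NRF2 as well, was the member on the other side, with 56.3 CPM on the hydrogel and 126 CPM on plastic. In empty-vector cells the same list had 9 genes higher, 1 lower and a median of 0.48, where 12.3% of all genes were higher and 11% lower. AKR1C genes are near-identical copies of each other, so reads could have been split between them.

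Lysosomal genes had 4 of 30 members at least 2-fold higher and 0 lower, with a median of 0.47, and their 13.3% past 2-fold is close to the 13.1% of all genes. SQSTM1, the autophagy receptor p62, had 750 CPM on the hydrogel and 187 CPM on plastic (4.0-fold, 3.88 to 4.13), and CTSD, an acid protease, had 110 and 31.8 CPM. Among ion transport genes 3 of 12 were higher and 0 lower, 25.0% past 2-fold against the same 13.1%. They included AQP3 above and SCNN1B, a subunit of the epithelial sodium channel, with 10.5 CPM on the hydrogel and 1.44 CPM on plastic. Few squamous or secretory genes reached the minimum in HER2 cells: 4 of 33 cornified envelope and S100 genes, 3 of them higher, and 9 of 25 secretory genes, 5 higher and 1 lower. Of all genes 7.35% were higher and 5.73% lower. Members below the minimum on both supports were not compared, so these counts do not describe the lists as a whole. Without a filter the median fell from 2.02 to 0.09 in the cornified list and from 1.42 to 0.50 in the secretory list.

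ID genes, which code for inhibitors of basic helix-loop-helix factors and are targets of BMP signalling, were higher on the hydrogel. ID1 had 110 CPM on the hydrogel and 44.3 CPM on plastic (2.5-fold, 2.34 to 2.67). ID3 had 7.37 CPM on the hydrogel and 0.569 CPM on plastic (13.0-fold, 7.51 to 24.5), and ID2 had 5.11 and 0.657 CPM (7.78-fold, 4.65 to 14). Of 11 members of the BMP list past the minimum, 5 were at least 2-fold higher and 0 lower, against 7.35% and 5.73% of all genes, with a median of 0.44. The other 8 of 19 listed members were below the minimum, and without a filter the median was 0.04. SMAD6, an inhibitory SMAD, was at 1.40 and BMPR2, a BMP receptor, at -0.88. In empty-vector cells ID1 was at 1.12, ID2 at 4.06 and ID3 at 0.53 (log2).

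Targets of YAP/TAZ were lower on the hydrogel. Of 22 listed genes 21 passed the minimum, of which 11 were at least 2-fold lower and 1 higher, against 5.73% and 7.35% of all genes, with a median of -1.06. CYR61, a matricellular ligand of integrins, had 9.62 CPM on the hydrogel and 77.7 CPM on plastic (8.08-fold lower, 7.39 to 8.84). CTGF, whose promoter holds 3 TEAD cores, had 6.72 CPM on the hydrogel and 21.9 CPM on plastic (3.26-fold lower, 2.87 to 3.70). NT5E, the ecto-nucleotidase CD73, had 276 CPM on the hydrogel and 960 CPM on plastic, and the receptor kinase AXL had 25.6 and 85.8 CPM. IGFBP3, also on this list, was the 1 member 2-fold higher (2.94). ANKRD1, a nuclear and sarcomeric ankyrin protein, did not pass the minimum, with 0 counts on the hydrogel and 8 on plastic (at least 8.20-fold lower).

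Of 19 Hippo pathway and TEAD genes 0 were 2-fold higher and 2 lower, with a median of -0.28. That is 10.5% past 2-fold, against 13.1% of all genes. YAP1 had 71.2 CPM on the hydrogel and 115 CPM on plastic (-0.68), and TEAD1, its DNA-binding partner, 65.8 and 108 CPM (-0.71). VGLL3, a cofactor of TEADs, had 56.7 CPM on the hydrogel and 245 CPM on plastic (-2.10), and AMOTL2, a scaffold that binds YAP and is itself a YAP target, was at -1.22. In empty-vector cells 10 YAP/TAZ targets were at least 2-fold lower on the hydrogel and 1 higher, with a median of -0.69. Over all genes 11% were lower and 12.3% higher there. The difference between the lines was not tested as a list.

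Of 20 matricellular and adhesive matrix genes, 10 were at least 2-fold lower and 1 higher (median -0.99), against 5.73% and 7.35% of all genes. POSTN, a matricellular protein that binds integrins, had 4.11 CPM on the hydrogel and 92.0 CPM on plastic (22.4-fold lower, 19.8 to 25.4). THBS1, a matricellular protein that activates TGF-beta, had 140.5 CPM on the hydrogel and 1074 CPM on plastic (7.65-fold lower, 7.47 to 7.83), and its promoter holds 1 TEAD core. VCAN, a large proteoglycan, had 51.8 CPM on the hydrogel and 351 CPM on plastic. HSPG2, perlecan, was the member higher on the hydrogel, with 6.97 CPM there and 3.15 CPM on plastic.

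Collagens had 6 of 19 members lower and 0 higher (median -0.61), against 5.73% and 7.35% of all genes. The median was 0.01 with a minimum of 5 CPM and -0.25 with total counts alone, so the direction of the median was not kept under each setting. COL17A1, the transmembrane collagen of hemidesmosomes, had 0.953 CPM on the hydrogel and 18.3 CPM on plastic (19.2-fold lower, 14.8 to 25.2), and COL7A1, of anchoring fibrils, had 2.99 and 16.4 CPM. In empty-vector cells COL17A1 stood at 675 CPM on the hydrogel and at 839 and 827 CPM on plastic (-0.30). Of 14 matrix proteases and inhibitors 6 were lower and 0 higher (median -0.64), against the same 5.73% and 7.35% of all genes. ADAM19, a membrane metalloprotease, had 4.98 CPM on the hydrogel and 83.3 CPM on plastic (16.7-fold lower, 14.9 to 18.8). PLAU, the urokinase that generates plasmin, had 13.7 CPM on the hydrogel and 155 CPM on plastic (11.3-fold lower, 10.5 to 12.2).

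CCBE1, a secreted factor of lymphatic growth, had 2.22 CPM on the hydrogel and 51.4 CPM on plastic (23.1-fold lower, 19.6 to 27.5). TNS4, a tensin of focal adhesions, had 1.195 CPM on the hydrogel and 18.6 CPM on plastic, and EPHB2, an ephrin receptor, 1.10 and 15.1 CPM. Also named among lower genes were ECSCR (0.427 CPM on the hydrogel, 11.6 CPM on plastic), ATN1 (2.29 and 25.1 CPM) and MYH15 (1.24 and 13.2 CPM). For ECSCR and ATN1 the plastic control stood above every other library: in HER2 cells on plastic ECSCR had 0.348 and 2.30 CPM with siRNA 1 and siRNA 3, and ATN1 3.33 and 3.39 CPM. In empty-vector controls ATN1 had 4.62 and 3.75 CPM. Most of the named lower genes were also lower on the hydrogel in empty-vector cells. THBS1 was at -4.41 (log2) there, CCBE1 at -3.59, MYH15 at -2.91, POSTN at -2.66 and ADAM19 at -2.45. CYR61 was at -2.27, EPHB2 at -1.51 and TNS4 at -1.065. PLAU (-0.55), ATN1 (-0.48) and COL17A1 (-0.30) stayed within 2-fold, ECSCR stayed below 1 CPM, and CXCL1 was higher (1.06). KDR, the VEGF receptor, had 0 counts on the hydrogel and 119 on plastic, at least 122-fold lower. KDR was chosen here after its values were seen, and it was among 8 genes past the minimum with 0 counts on the hydrogel. Another 10 genes past the minimum had 0 counts on plastic.

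TGF-beta ligands and targets were lower in 8 of 18 and higher in 0 (median -0.77), against 5.73% and 7.35% of all genes. TGFBI, a secreted matrix adaptor, had 721 CPM on the hydrogel and 2254 CPM on plastic (-1.65), and PMEPA1, a feedback inhibitor of the pathway, had 4.72 and 23.4 CPM (-2.20). TGFB1 was nearly level, with 25.8 CPM on the hydrogel and 26.2 CPM on plastic. Integrin and focal adhesion genes were lower in 3 of 24 and higher in 1 (median -0.48), 16.7% past 2-fold against 13.1% of all genes, with ITGB6, a TGF-beta activating integrin chain, at -2.36 and BCAR1, an adaptor of focal adhesions, at 1.01. Of 23 SRF targets and actin cytoskeleton genes 2 were lower, among them the myosin heavy chain MYH9 at -1.60, and TRIP6 was higher at 1.02, which makes 13.0% past 2-fold, about the share of all genes. In empty-vector cells 8 of 24 members of that list were lower on the hydrogel and 0 higher, against 11% and 12.3% of all genes.

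Of 19 mesenchymal genes 6 were lower and 1 higher (median -0.53). Over all genes 5.73% were lower and 7.35% higher, which also stands beside the junction genes and keratins below. SNAI2, a repressor of epithelial genes, had 17.2 CPM on the hydrogel and 55.0 CPM on plastic, and ZEB1, of the same function, 55.5 and 125 CPM. TWIST1, a helix-loop-helix factor, was the member higher on the hydrogel, at 45.4 CPM, against 19.3 CPM on plastic. Epithelial junction genes were higher in 2 of 19 and lower in 2 (median -0.25), and keratins were lower in 4 of 10 and higher in 0 (median -0.73), with KRT6A at 191 CPM on the hydrogel and 652 CPM on plastic. CDH1, as given above, was near absent on both supports.

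**Figure D3:**
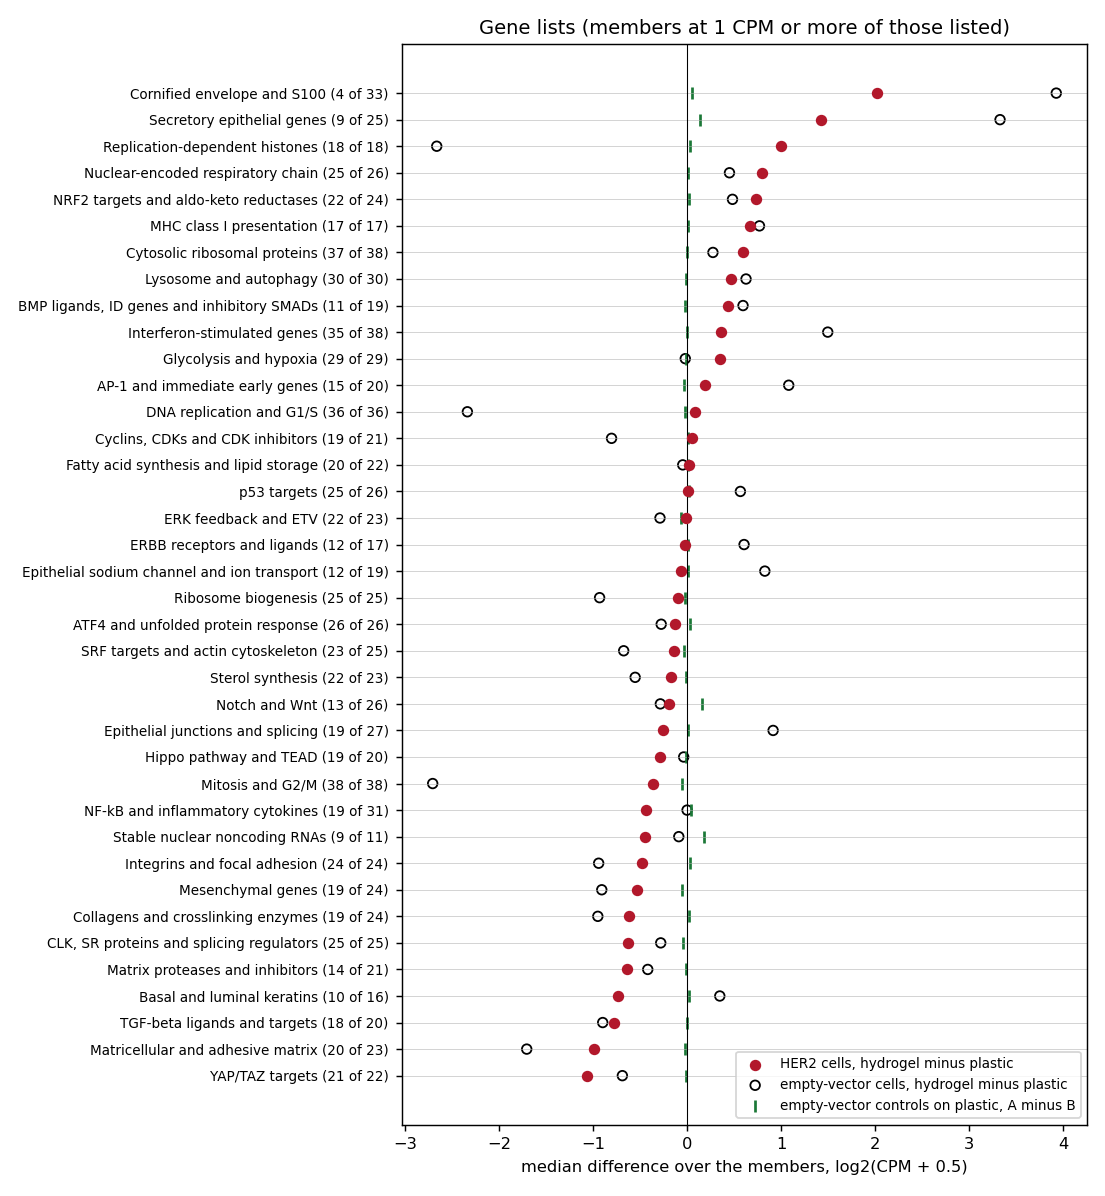
Median difference over the members of each gene list, in log2(CPM + 0.5), with hydrogel minus plastic in HER2 cells as red points and in empty-vector cells as open circles. Green ticks give control A minus B in empty-vector cells on plastic. YAP/TAZ targets had the lowest median in HER2 cells (-1.06), and histone genes (1.00 in HER2 cells, -2.66 in empty-vector cells) lay on opposite sides.

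DNA replication genes were close to level between supports in HER2 cells and were lower on the hydrogel in empty-vector cells. Of 36 DNA replication genes, 0 were 2-fold higher or lower on the hydrogel in HER2 cells (median 0.08), while 36 of 36 were at least 2-fold lower on the hydrogel in empty-vector cells (median -2.34), where 11% of all genes were. MCM2, a subunit of the replicative helicase, had 148 CPM on the hydrogel and 104 CPM on plastic in HER2 cells. In empty-vector cells MCM2 had 22.5 CPM on the hydrogel and 162 CPM in each control on plastic. TK1, the thymidine kinase of S phase, had 39.7 CPM on the hydrogel and 22.5 CPM on plastic in HER2 cells, and 5.30 CPM on the hydrogel and 43.6 and 42.9 CPM on plastic in empty-vector cells. In HER2 cells neither gene passed 2-fold, and the difference of TK1 (0.81) was 0.45 after centring by transcript length.

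Mitosis genes were lower in 4 of 38 and higher in 0 in HER2 cells (median -0.36), and lower in 37 of 38 in empty-vector cells (median -2.70). In HER2 cells 10.5% of the list passed 2-fold either way, against 13.1% of all genes. In empty-vector cells 11% of all genes were lower. The 4 were MKI67, the proliferation antigen of the chromosome surface (285 CPM on the hydrogel, 903 CPM on plastic), INCENP (-1.22), CENPE (-1.19) and CENPF (1146 and 2428 CPM). MKI67, CENPE and CENPF have long transcripts, and after centring by transcript length, described below, 2 mitosis genes were 2-fold lower. CDK1, the kinase that drives entry into mitosis, had 300.4 CPM on the hydrogel and 256 CPM on plastic in HER2 cells (0.23), and was at -2.74 in empty-vector cells. CDKN1A, the cell cycle inhibitor p21, was higher on the hydrogel in HER2 cells at 54.9 CPM, against 19.96 CPM on plastic (1.44), and at 1.22 in empty-vector cells.

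Replication-dependent histones are made in S phase, and their transcripts lack a poly(A) tail. In HER2 cells 9 of 18 were higher and 0 lower (median 1.00), with all 18 above 0. Over all genes 7.35% were higher and 5.73% lower there. HIST1H3F had 52.3 CPM on the hydrogel and 14.7 CPM on plastic in HER2 cells (3.56-fold, 3.19 to 4.0). In empty-vector cells it had 4.15 CPM on the hydrogel and 65.4 and 46.8 CPM on plastic. HIST1H4H had the smallest difference in HER2 cells, 161 CPM on the hydrogel and 127 CPM on plastic. Of the list, 17 of 18 were at least 2-fold lower on the hydrogel in empty-vector cells (median -2.66), against 11% of all genes. Histone transcripts are short and alike, and after centring by length 3 of 18 were 2-fold higher with a median of 0.39.

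**Figure D4:**
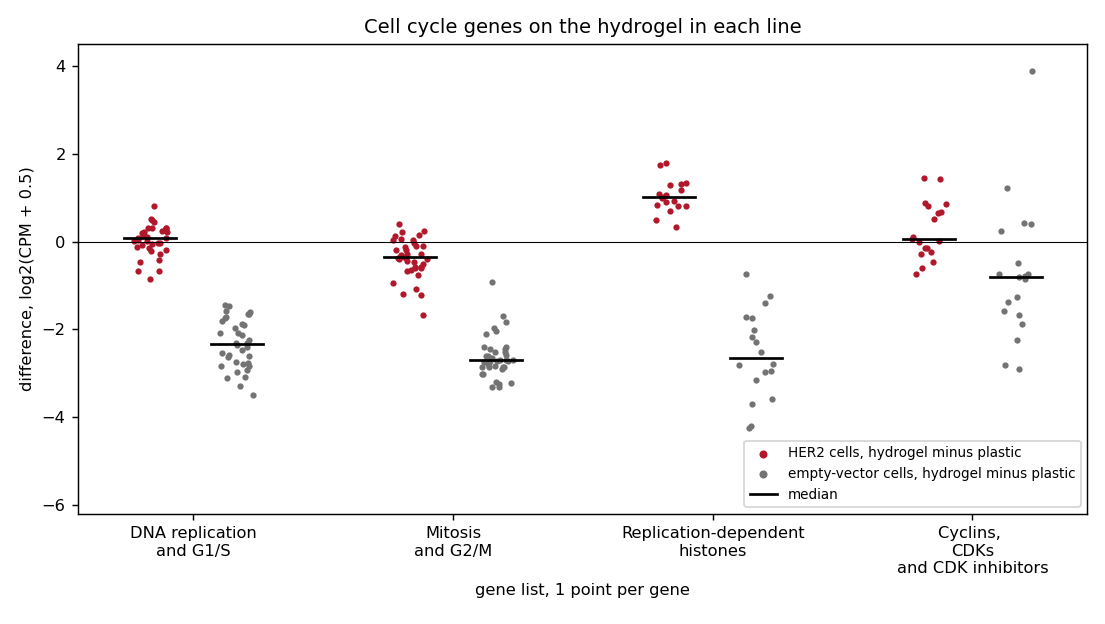
Difference in log2(CPM + 0.5), hydrogel minus plastic, for each gene of 4 cell cycle lists in HER2 cells (red) and empty-vector cells (grey), with the median as a bar. DNA replication genes had a median of 0.08 in HER2 cells and -2.34 in empty-vector cells.

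The 2 lines were then compared over all genes. In empty-vector cells 1568 of 12721 genes (12.3%) were at least 2-fold higher on the hydrogel and 1405 (11%) lower, 2973 (23.4%) either way, against 13.1% in HER2 cells. Over the 11676 genes past the minimum in both lines, the 2 sets of differences, which share no library, correlated at Pearson 0.226 and Spearman 0.162, as a description across genes. Of 806 genes higher in HER2 cells 232 (28.8%) were also higher in empty-vector cells, which is 22.8% of the 1016 higher there, and 85 were lower. Of 626 genes lower in HER2 cells 177 (28.3%) were also lower in empty-vector cells, 13.3% of the 1332 lower there, and 42 were higher. The remaining 489 higher and 407 lower genes stayed within 2-fold in empty-vector cells. The difference between the responses of the lines called 0 of 16117 genes (0%) in edgeR (1900 at an unadjusted p under 0.05, smallest adjusted p = 0.379) and 500 (3.1%) in DESeq2, 302 with a higher and 198 with a lower response in HER2 cells.

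In HER2 cells 4 of 19 NF-kB and cytokine genes were lower and 0 higher (median -0.44), and in empty-vector cells 9 of 24 were higher and 3 lower, against 5.73% lower in HER2 cells and 12.3% higher in empty-vector cells over all genes. CXCL1, a chemokine for neutrophils with an NF-kB sequence in its promoter, had 3.64 CPM on the hydrogel and 50.3 CPM on plastic in HER2 cells (13.8-fold lower, 12 to 15.9). In empty-vector cells CXCL1 had 105 CPM on the hydrogel and 51.4 and 48.6 CPM on plastic. With siRNA 1 and siRNA 3 in HER2 cells on plastic it had 286.1 and 14.55 CPM. BIRC3, an inhibitor of cell death and NF-kB target, had 45.5 CPM on the hydrogel and 162 CPM on plastic in HER2 cells, and 687 CPM on the hydrogel and 286 and 290.4 CPM on plastic in empty-vector cells. IL1A had 17.5 CPM on the hydrogel and 63.8 CPM on plastic in HER2 cells and was lower on the hydrogel in empty-vector cells too (-1.08).

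Interferon-stimulated genes were higher in 6 of 35 and lower in 0 in HER2 cells (median 0.36), and higher in 26 of 37 in empty-vector cells (median 1.497). Over all genes 7.35% were higher and 5.73% lower in HER2 cells, and 12.3% were higher in empty-vector cells. IFI6, whose promoter holds 3 interferon elements, had 16.9 CPM on the hydrogel and 4.42 CPM on plastic in HER2 cells (3.81-fold, 3.11 to 4.72). In empty-vector cells it had 73.6 CPM on the hydrogel and 5.96 and 6.58 CPM on plastic. OASL, an antiviral protein, had 38.0 CPM on the hydrogel and 6.52 CPM on plastic in HER2 cells, and OAS1, which makes the activator of RNase L, 48.8 and 17.3 CPM. IFIT1, which binds viral RNA, differed by -0.35 in HER2 cells and by 3.92 in empty-vector cells. MHC class I genes were higher in 5 of 17 and lower in 0 (median 0.68 in HER2 cells, 0.77 in empty-vector cells), with HLA-B at 127 CPM on the hydrogel and 50.8 CPM on plastic. After centring by length 0 of the 17 were 2-fold higher, with a median of 0.58. HLA genes are near-identical in sequence, so their counts are uncertain.

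Of ERK feedback and ETV genes 3 of 22 were lower and 1 higher (median -0.02). Over all genes 5.73% were lower and 7.35% higher, 13.1% either way, which also stands beside the other lists of this paragraph. FOSL1, an AP-1 subunit that follows ERK activity, had 6.43 CPM on the hydrogel and 43.9 CPM on plastic, and DUSP6, the phosphatase of ERK, 883 and 369 CPM. The pair of ERK outputs thus lay on opposite sides. EGFR had 34.6 CPM on the hydrogel and 76.4 CPM on plastic (-1.13), and the ligand EPGN 7.71 and 32.1 CPM (-1.99). Of 15 immediate early genes 3 were higher and 3 lower, FOS with 30.7 CPM on the hydrogel and 8.32 CPM on plastic. Of 29 glycolysis and hypoxia genes 2 were higher, CA9 (9.25 CPM on the hydrogel and 2.85 CPM on plastic) and ALDOC (40.04 and 14.6 CPM), and 0 lower (median 0.35). Of 26 ATF4 and unfolded protein response genes 0 were higher and 1 lower (median -0.13), and p53 targets were higher in 3 of 25 and lower in 1 (median 0.02).

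Genes of splicing and nuclear RNAs were lower on the hydrogel. Of 25 CLK, SR protein and splicing regulator genes 7 were lower and 0 higher, with 24 of 25 below 0 (median -0.63). Over all genes 5.73% were lower and 7.35% higher. HNRNPH3, a splicing factor, had 12.4 CPM on the hydrogel and 91.4 CPM on plastic (7.39-fold lower, 6.83 to 8.01). HNRNPA2B1, an abundant RNA-binding protein, had 292 CPM on the hydrogel and 1441 CPM on plastic, and NSRP1, a nuclear speckle protein, 11.98 and 66.5 CPM. With siRNA 1 and siRNA 3 in HER2 cells NSRP1 had 22.8 and 15.1 CPM. For these 3 genes the HER2 plastic control library stood apart, above each of the other libraries of the study. HNRNPH3 had 21.0 and 19.6 CPM with siRNA 1 and siRNA 3 in HER2 cells and at most 17.3 CPM in the empty-vector controls. HNRNPA2B1 had 475 and 261 CPM with the siRNAs in HER2 cells and 414 and 433 CPM in the empty-vector controls.

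The long nuclear RNA MALAT1, of nuclear speckles, had 580 CPM on the hydrogel and 2484 CPM on plastic in HER2 cells (4.29-fold lower, 4.23 to 4.34), and 842 and 1323 CPM with siRNA 1 and siRNA 3. In empty-vector cells it had 1563 CPM on the hydrogel and 929 and 818 CPM on plastic. NEAT1, the scaffold of paraspeckles, had 49.9 CPM on the hydrogel and 172 CPM on plastic in HER2 cells, and 71.0 and 33.1 CPM with the siRNAs. Of 9 nuclear noncoding RNAs past the minimum 3 were lower and 0 higher, against 5.73% and 7.35% of all genes. The remaining lower RNA was KCNQ1OT1, with 17.1 CPM on the hydrogel and 37.4 CPM on plastic. KCNQ1OT1 had 18.9 and 12.1 CPM with the siRNAs in HER2 cells. KCNQ1OT1 overlaps KCNQ1 on the opposite strand, and strand use in the counting was not given in the sources used here.

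Transcript length went with the difference in HER2 cells. Over 11265 genes with a protein-coding transcript in GENCODE 29 (94.0% of those compared), the Spearman correlation of the longest such transcript with hydrogel minus plastic was -0.395 in HER2 cells, 0.009 in empty-vector cells and -0.033 for A minus B. The genes were put in 4 length bins of equal size. From the shortest bin (312 to 2251 bases) to the longest (5350 to 34526 bases) the medians in HER2 cells were 0.39, 0.09, -0.08 and -0.27. The 2-fold higher genes numbered 470, 203, 101 and 75 in these bins, and the 2-fold lower ones 86, 98, 161 and 244. With the other HER2 libraries on plastic in place of the control, the correlation was -0.258 for hydrogel minus siRNA 1 and -0.252 for hydrogel minus siRNA 3. It was -0.242 for siRNA 1 minus the control and -0.058 for siRNA 3 minus the control. These are descriptions across genes, and the part of length in any 1 difference was not tested.

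**Figure D5:**
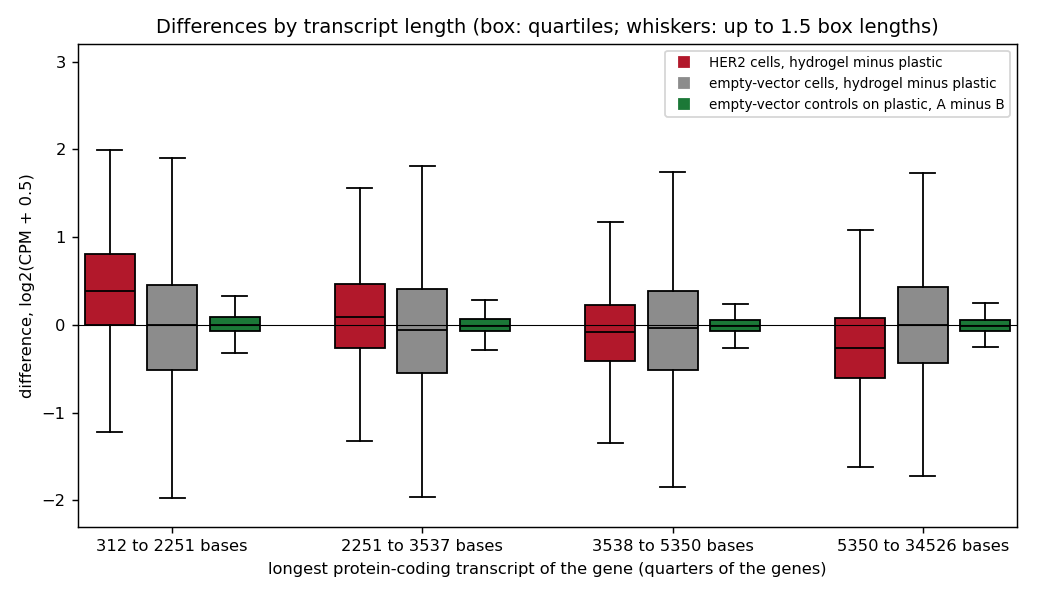
Difference in log2(CPM + 0.5) by bin of transcript length, for hydrogel minus plastic in HER2 cells (red), hydrogel minus plastic in empty-vector cells (grey) and control A minus B (green). Boxes show quartiles with the median as a line, and whiskers reach up to 1.5 box lengths. In HER2 cells the median was 0.39 in the shortest and -0.27 in the longest bin.

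Lists of short genes must be read beside this trend. Nuclear-encoded respiratory chain genes, with a median length of 1098 bases, were higher in 7 of 25 and lower in 0 (median 0.80). Over all genes 7.35% were higher and 5.73% lower. COX5B, a subunit of cytochrome c oxidase, had 99.5 CPM on the hydrogel and 38.1 CPM on plastic (2.61-fold, 2.43 to 2.81). When each difference was centred on genes of like length, 0 of 25 were 2-fold higher and the median was 0.29. Cytosolic ribosomal proteins, with a median length of 1129 bases, were higher in 5 of 37 and lower in 0 (median 0.60). That is 13.5% past 2-fold, close to the 13.1% of all genes. After centring the median was 0.12 with 2 higher and 1 lower. Ribosomal protein genes have many processed pseudogenes that share reads. Their counts are uncertain for that reason.

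The median changed sign after centring in 4 of 37 lists, all of them within 0.19 of 0 before it. Lists whose medians stayed far from 0 included YAP/TAZ targets (-1.06, centred -1.01), matricellular genes (-0.99, centred -0.73), TGF-beta genes (-0.77, centred -0.98) and NRF2 targets (0.73, centred 0.73 with 8 higher and 0 lower). Other medians shrank, from 1.42 to 0.77 in the secretory list and from 2.02 to 1.51 in the cornified list. Of the lipid genes, CD36 was at 5.29, GPD1 at 4.88, FABP4 at 3.15, LPL at 3.07 and PLIN1 at 3.29 after centring. Among lower genes, POSTN was at -4.33, THBS1 at -2.62 and CYR61 at -3.13. Centring moved no gene of the naming rule by more than 0.649. Genes named for large differences therefore stayed far from 0, which is no test of length.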

How the data were processed

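RNA-seq libraries were made from total RNA with ribosomal RNA depletion, per the labels' protocols. The authors deposited unnormalised read counts, 1 row for each gene symbol. STAR 2.5.3a, featureCounts and edgeR and the build hg19 are named in the submitters' processing notes, whereas the annotation, the strand setting and the handling of reads with several matches are not given in the sources used here. The matrix holds 25369 entries with a symbol and 1 without, which has 0 counts. All 9 columns were mapped to samples, leaving 0 unused.

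Counts were scaled by TMM (edgeR 4.0.16, R 4.3.3) to CPM, and differences were taken as log2(CPM + 0.5), with a minimum of 1 CPM in either library. Ratios have exact 95% intervals from the counts, and 3 counts per library served as the floor. Intervals and floors cover counting error only. The fit across genes used edgeR's quasi-likelihood test on the means of 6 groups (minimum count 10, Benjamini-Hochberg at 0.05, 3 residual degrees of freedom). The spread of single-library groups was taken from the others, where siRNA reagents 1 and 3 counted as replicates. DESeq2 1.42.0 was an alternative, and the scripts were tested on simulated data. Controls A and B differed by more than sampling noise (chi-square per degree of freedom 12.1 over 13276 genes with 50 or more counts in A and B together). Other steps used Python 3.11.15 with pandas 2.3.3.

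The members, 39 gene lists and 6 lists of cell type markers were chosen with earlier results of these data known. Named genes are the 15 per direction with the largest difference among genes with 10 CPM or more in the higher library, leaving out uncharacterised loci, small and antisense RNAs and pseudogenes, plus examples from the lists. Some genes that met this rule are not reported here. None of the 12 mitochondrially encoded genes listed matched an entry, and they are not analysed here. Promoters come from RefSeq on GRCh38.p14 and transcript lengths from GENCODE 29. Both were matched by symbol, and no coordinates were carried to hg19.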

Additional observations from a re-analysis of the deposited data

Results flagged for a closer look

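CXCL1 differed by -3.62 (log2, hydrogel minus plastic) in HER2 cells and by 1.06 in empty-vector cells. The hydrogel library lay below plastic in HER2 cells and above both plastic controls in empty-vector cells. CXCL1 also varied among HER2 libraries on plastic, with 286.1 CPM with siRNA 1 and 14.55 CPM with siRNA 3, against 50.3 CPM in the control. The difference between the lines was -4.85 ± 2.59 (SE) in edgeR's quasi-likelihood test and did not pass (adjusted p = 0.503). With siRNA number as a replicate block the adjusted p was 0.0708, and by DESeq2 it was 0.365.

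The replication-dependent histones had a median of 1.00 in HER2 cells and of -2.66 in empty-vector cells. The difference between these medians was not tested. After centring by transcript length the median in HER2 cells was 0.39.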

How the results depend on the processing

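With the siRNA number as a replicate block, edgeR called 30 genes between hydrogel and plastic in HER2 cells (6 higher, 24 lower; 0.186%; smallest adjusted p = 0.0432), against 0 without it, and the difference between the lines still called 0. The numbers name siRNA reagents that neither compared library received. The differences siRNA 3 minus siRNA 1 correlated at r = 0.542 between the lines over 12378 genes. The common coefficient of variation was 0.408 without and 0.209 with the block. DESeq2 called 313 genes between supports and 500 between the lines. Leaving out each replicate in turn gave 0 to 0 calls in both comparisons, as did DESeq2's size factors and no filter on low counts. The cause of these differences between fits was not tested.

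At 4-fold in place of 2-fold, 84 genes were higher and 92 lower, as the stricter threshold implies, and 19 gene lists held a larger share of such genes than all genes did, against 29 at 2-fold. Under the other settings the higher genes ran from 600 (centred by transcript length, a setting chosen after seeing the data) to 1041 (pseudocount of 0.1 CPM), and the lower ones from 492 (minimum of 5 CPM) to 823 (pseudocount of 0.1 CPM). Scaled by total counts alone, 1019 genes were higher and 570 lower. All 30 genes that met the naming rule kept their sign and stayed past 2-fold in the 8 settings that were run on them. List medians changed sign in 4 lists when centred by length, in 3 with total counts alone, in 2 with a minimum of 5 CPM and in 1 each with DESeq2's size factors and with no filter. The smaller depth on plastic and the single library on each side limit low genes most.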
